A study of Homo sapiens with 57 samples.

Results

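The 8 transcripts described here encode factors that hold RNA polymerase II near the start of genes or let it move on: SUPT4H1 (Spt4), SUPT6H (Spt6), NELFA, NELFB and NELFE (subunits of NELF), CDK9 and CCNT1 (the kinase and cyclin of P-TEFb) and HEXIM1 (a P-TEFb inhibitor). The transcripts are ENST00000225504.8_3 of SUPT4H1 (1488 bases), ENST00000314616.11_2 of SUPT6H (6404), ENST00000382882.9_5 of NELFA (2198), ENST00000343053.5_5 of NELFB (2540), ENST00000375429.8_3 of NELFE (1445), ENST00000373264.5_2 of CDK9 (2483), ENST00000261900.8_3 of CCNT1 (6788) and ENST00000332499.3_1 of HEXIM1 (3600). They were chosen by transcript identifier, 1 for each gene, from the 228715 transcripts in the tables, and all 8 were among the 78478 that passed the filter on low counts. The tables hold no gene names, so the gene symbols are those of the list by which the transcripts were chosen. Other transcripts of the same genes could not be picked out, and every value below is that of 1 transcript, not of its gene.

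The RNA came from HCT116, a human colorectal carcinoma cell line, sampled in 9 poly(A)-selected libraries of 3 groups with 3 replicates each. All groups carried Spt5 as an HA-dhfr fusion, were grown without TMP (minusTMP in the labels), and held a pCW57 construct that encodes Spt5(1-820), a fragment with an Avi tag. Doxycycline (2 ug/ml, 24 hours) turned the fragment on, and the medium also held hygromycin, G418 and blasticidin. The groups differed in the CTR1 region of the fragment, given as WT, TA7 or TE7. The labels do not say whether a group was 1 clone or whether its replicates were grown apart. The p-values therefore rest on the spread of these libraries alone, which may be technical, and the form of CTR1 cannot be told apart from the cell line that carries it. The other 48 of the 57 samples in the series hold other measurements and are not analysed here.

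Soon after it starts, RNA polymerase II can pause just downstream of the promoter, held by NELF and by DSIF, the dimer of Spt4 and Spt5. P-TEFb, in which cyclin T1 activates CDK9, phosphorylates NELF, Spt5 and the polymerase, and this lets the polymerase elongate. HEXIM1 binds P-TEFb together with the 7SK RNA and keeps it inactive. Spt6 is a histone chaperone that travels with elongating polymerase. CTR1 is a C-terminal region of Spt5 with repeats that P-TEFb can phosphorylate. The comparisons ask whether mRNAs for these partners of Spt5 differed when the form of CTR1 differed.

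Promoter windows of 250 bases before to 50 bases after the start site were found in RefSeq (GRCh38.p14) for all 8 genes. There were 9 windows, 2 of them of CCNT1, and a member is counted below if any of its windows matched. The windows of HEXIM1 and SUPT6H are shown because these were the members whose transcripts passed the test, and that of NELFE because its fitted change was the largest. Capitals mark matches, on either strand, to TATAAA (the TATA box), CCAAT (the CCAAT box) and CGGAAG (the core of sites for ETS factors).
HEXIM1 promoter, chr17:45148225-45148524, plus strand: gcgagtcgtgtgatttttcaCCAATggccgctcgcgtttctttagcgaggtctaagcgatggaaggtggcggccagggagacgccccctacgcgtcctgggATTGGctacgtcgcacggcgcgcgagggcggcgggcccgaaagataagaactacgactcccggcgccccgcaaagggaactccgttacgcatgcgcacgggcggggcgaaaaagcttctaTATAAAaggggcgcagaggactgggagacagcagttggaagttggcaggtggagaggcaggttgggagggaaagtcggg
SUPT6H promoter, chr17:28661955-28662254, plus strand: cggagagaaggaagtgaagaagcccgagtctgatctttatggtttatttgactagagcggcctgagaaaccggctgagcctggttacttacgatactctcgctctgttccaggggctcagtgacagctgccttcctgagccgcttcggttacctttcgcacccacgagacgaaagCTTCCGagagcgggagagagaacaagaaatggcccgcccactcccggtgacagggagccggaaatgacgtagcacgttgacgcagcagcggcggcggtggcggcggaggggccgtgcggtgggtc
NELFE promoter, chr6:31958922-31959221, minus strand: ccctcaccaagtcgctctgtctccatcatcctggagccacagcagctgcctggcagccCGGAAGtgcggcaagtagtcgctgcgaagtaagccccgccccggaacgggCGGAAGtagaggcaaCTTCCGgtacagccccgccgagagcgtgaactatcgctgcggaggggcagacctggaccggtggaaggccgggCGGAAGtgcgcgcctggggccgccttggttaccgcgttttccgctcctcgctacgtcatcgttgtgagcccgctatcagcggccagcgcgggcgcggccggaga

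The HEXIM1 window held a TATAAA match and matches to CCAAT, and no CGGAAG. It was the only member window with TATAAA, which 11.5% of 35116 RefSeq windows of the same length contained. CGGAAG was found in the windows of the other 7 members, SUPT6H and NELFE among them, and in 19.5% of all windows. CCAAT was found for 2 of 8 members, HEXIM1 and CCNT1, and in 34.6% of all windows. All matches of CCNT1 were in the first of its 2 windows. The other letters searched, also on both strands and not in capitals, were GGGCGG (the GC box), found for 7 members and in 45.0% of all windows, ATGGCG (the YY1 core), found for 1 and in 10.7%, and TGACG (the cyclic AMP element core), found for 3 and in 24.6%. In the windows of NELFB, NELFE and CDK9, CGGAAG matches shared bases with GGGCGG. A match of this kind is a description of the letters and not of binding, and nothing in these libraries measured the promoters. G and C made up 59.0% to 82.0% of the members' first windows. The shares of all windows were not matched for this or for expression. They do not show whether a match was more frequent here than in like promoters.

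The libraries held 64364751 to 90805283 estimated reads. WT replicate 1 stood apart from the other WT libraries for several members. In CPM it was the highest of the 3 for HEXIM1, SUPT6H and NELFB and the lowest for CCNT1, in each case towards TE7. It was also the highest WT library for CDK9 (90.4 CPM) and SUPT4H1 (59.3 CPM), and there it lay above every TE7 library. For NELFA and NELFE it lay close to WT replicate 3. Long transcripts, of at least 4000 bases, gave a share of the reads that was 18.99% to 19.94% in TE7, 22.34% to 24.07% in TA7, 23.15% and 24.79% in WT replicates 2 and 3, and 20.41% in WT replicate 1. Levels are given per length as TPM (a transcript's share of all transcripts, by effective length) where genes are compared with each other. Differences between groups are given in CPM (a transcript's share of the library's reads, scaled between libraries by TMM), on which the test ran. Both are relative to the library, so a change in the number of cells or in the total RNA per cell does not show in these values. The tables' identifiers could not be paired with gene names, so markers of the cell line were not checked, and other genes of the pathway, Spt5 among them, are not described.

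Per length, HEXIM1 was the most abundant of the 8 and CCNT1 the least. HEXIM1 was at 75.2 TPM ± 11.4 (SD, n = 9 libraries) and lay above NELFB in 9 of 9 libraries. NELFB (43.4 ± 6.60), SUPT4H1 (41.2 ± 4.59), CDK9 (38.9 ± 1.09) and NELFE (38.7 ± 10.4) came next, and their ranges over libraries overlapped, so their order is not settled. SUPT6H was at 31.4 TPM ± 3.52, within the range of NELFE. NELFA followed at 23.5 TPM ± 1.39, below SUPT6H in all 9 libraries. CCNT1 was at 13.2 TPM ± 2.33, below NELFA in all 9. In TPM the steadiest of the 8 was CDK9, at 36.96 to 40.64 TPM in every library, and the most variable for its level was NELFE, at 26.5 to 54.2 TPM. In CPM, NELFA (43.0 ± 2.52, SD, n = 9) varied less for its level than CDK9 (80.3 ± 5.33).

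**Figure D1:**
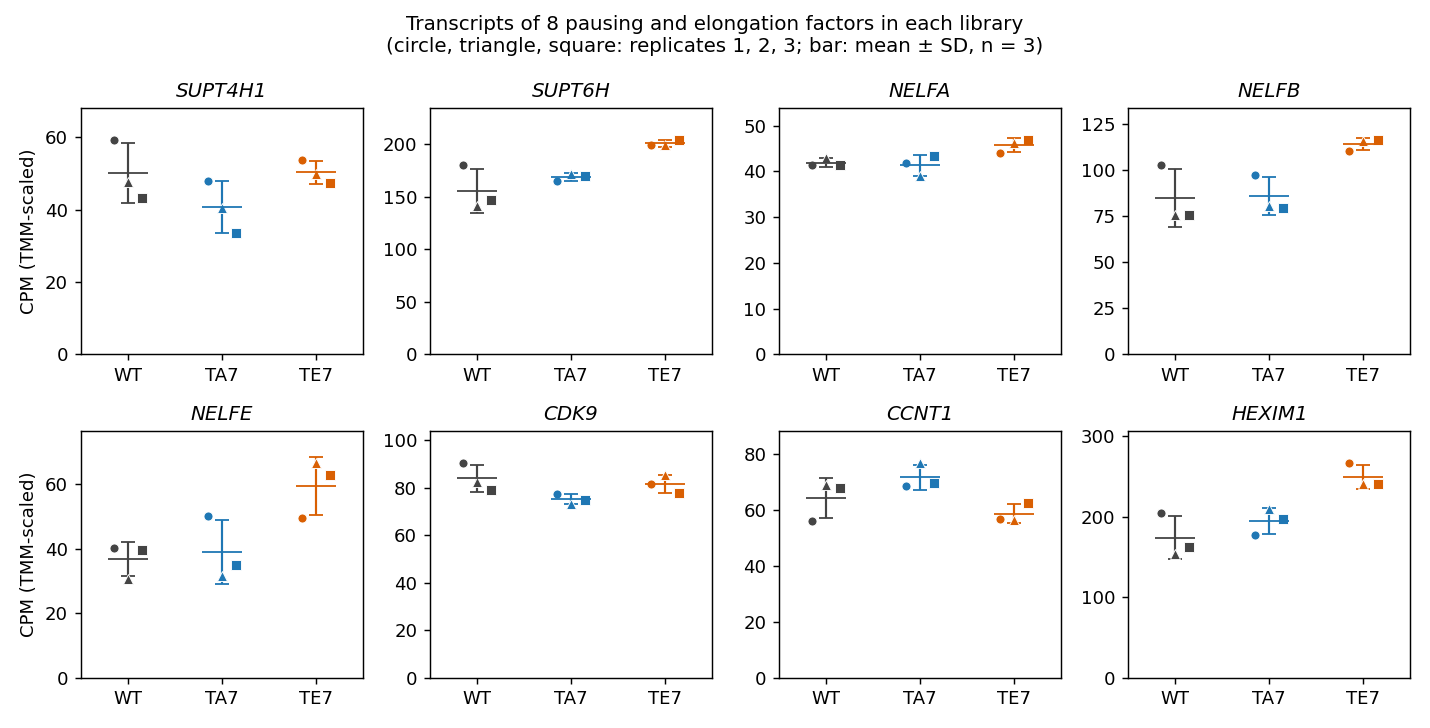
CPM (vertical axis, from 0) of each of the 8 transcripts in the WT, TA7 and TE7 libraries; points are libraries and bars are mean ± SD, n = 3. The TE7 points of SUPT6H, NELFA, NELFB, NELFE and HEXIM1 all lie above the WT points, and those of CCNT1 all lie below the TA7 points.

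In TE7 compared with WT, HEXIM1 and SUPT6H rose and none of the 8 fell (edgeR's quasi-likelihood test at an adjusted p under 0.05 over all transcripts, by Benjamini-Hochberg, 3 libraries per group). These 2 of 8 are 25.0%, against 9.40% of all tested transcripts, 4.59% being higher and 4.81% lower. Calls were more frequent among transcripts as abundant as the members. Of 3769 transcripts between 43.0 and 206 CPM, the range of the members' mean levels, 34.8% passed and 17.5% were higher, so the members' share was near that of other transcripts of their abundance. The median log2 change of the 8 was 0.25, against 0.07 for those 3769 transcripts and -0.02 for all tested. In CPM the 3 TE7 libraries lay all above the 3 WT libraries for 5 of 8 members (SUPT6H, NELFA, NELFB, NELFE and HEXIM1) and all below for 0. At an unadjusted edgeR p under 0.05 there were 4 members (HEXIM1, SUPT6H, NELFB and NELFE, all higher), against 25.3% of all transcripts. Shares at unadjusted p, here and below, were not computed for the same CPM range. Groups did not overlap, in either direction, for 32.9% of all transcripts and for 58.4% of those in the same CPM range.

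HEXIM1, which holds P-TEFb inactive, was at 204, 154 and 163 CPM in WT replicates 1, 2 and 3. It was at 177, 210 and 197 CPM in TA7 and at 267, 241 and 241 CPM in TE7. Every TE7 library lay above every other library, while WT and TA7 overlapped. The change from WT to TE7 was 1.44-fold, or 0.52 on the log2 scale (SE 0.115, 95% interval 0.25 to 0.79, edgeR adjusted p = 0.031). Over the other processing choices the log2 change lay between 0.44 and 0.66 and the adjusted p between 0.000455 and 0.108. The call was lost in edgeR when any of 6 libraries was left out: WT replicate 2 (adjusted p = 0.0975) or 3 (0.108), TA7 replicate 3 (0.0593), or TE7 replicate 1 (0.106), 2 (0.084) or 3 (0.078). It was also lost with only the WT and TE7 libraries in the fit (0.0628).

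SUPT6H, the histone chaperone Spt6, was at 180, 141 and 147 CPM in WT, at 165, 172 and 170 CPM in TA7 and at 199, 199 and 204 CPM in TE7. The TE7 values lay close together and above all others, and WT replicate 1 was the highest of the rest. The change from WT to TE7 was 1.29-fold, or 0.37 on the log2 scale (SE 0.0877, 95% interval 0.16 to 0.57, edgeR adjusted p = 0.0409). Its log2 change lay between 0.30 and 0.49 over the other choices, with adjusted p from 0.000953 to 0.132. In edgeR the call held without WT replicate 1 (0.000953) and was lost when any other library was left out: WT replicate 2 (0.117) or 3 (0.132), TA7 replicate 1 (0.0659), 2 (0.0719) or 3 (0.0749), TE7 replicate 1 (0.108), 2 (0.112) or 3 (0.12). It was also lost with no filter on low counts (0.06) and with only the 2 groups in the fit (0.0975).

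The direction of SUPT6H was opposite to the median of transcripts of its length. This transcript has 6404 bases, and among 4875 transcripts of 4000 to 7999 bases with at least 5 CPM the median log2 change from WT to TE7 was -0.16, with 342 called higher and 1071 lower. Its effective length, which the authors' quantification adjusts in each library, was 6447 to 6648 bases, above its length in every library. On TPM, which takes that into account, SUPT6H was at 27.3 ± 1.67 in WT, 32.1 ± 1.29 in TA7 and 34.9 ± 1.13 in TE7 (SD, n = 3). HEXIM1 has 3600 bases, and was at 63.6 ± 4.82 TPM in WT, 75.1 ± 7.65 in TA7 and 86.9 ± 5.33 in TE7. Its direction was that of the median of transcripts of its length. Among 7068 transcripts from 2000 to under 4000 bases with at least 5 CPM, that median was 0.09. NELFA, NELFB and CDK9 are also in this class of transcripts. Of these, 980 were called higher and 719 lower. CDK9 was at -0.04 and NELFA at 0.13. The part of that class shift in the HEXIM1, NELFA, NELFB and CDK9 values was not tested.

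The profiles of HEXIM1 and SUPT6H over the 9 libraries were, by Pearson's r, more alike than those of any other pair of members. The r of their log2 CPM was 0.965 and Spearman's rho 0.917. With the group means taken out r was 0.859, and without the 2 libraries farthest from the median of SUPT6H it was 0.954. These are descriptions over libraries that share their scaling, the 2 values of a library come from the same RNA, and the 28 pairs were ranked before this one was picked.

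**Figure D2:**
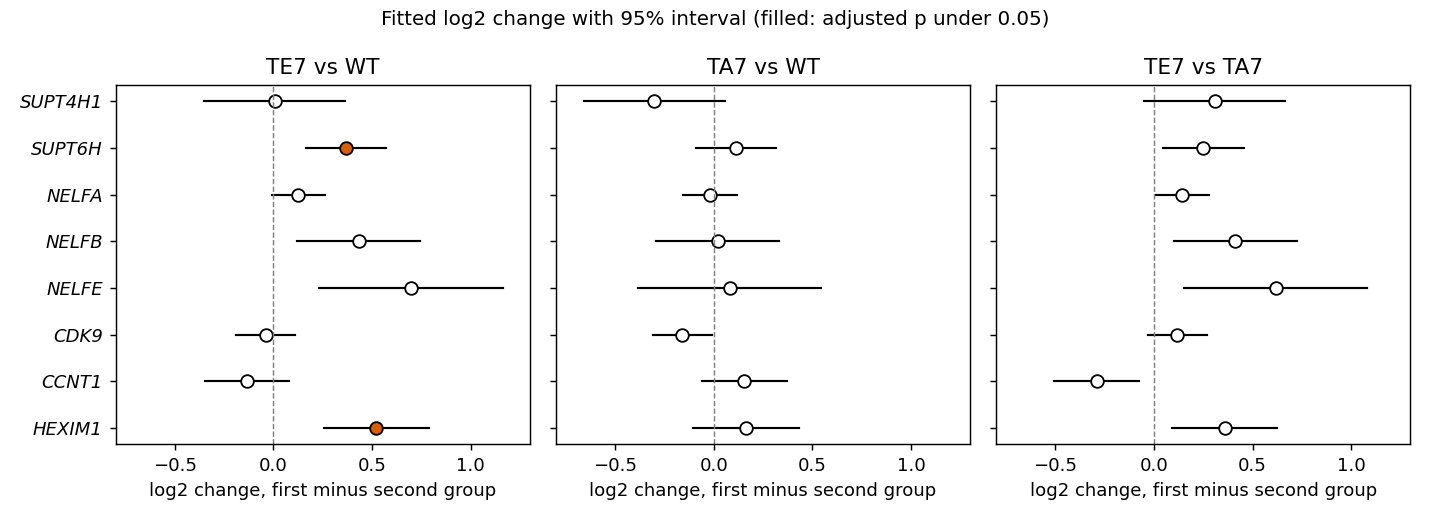
Fitted log2 change (horizontal axis, first minus second group) of the 8 transcripts in the 3 comparisons, with 95% intervals from the edgeR fit; filled points have adjusted p under 0.05. HEXIM1 and SUPT6H in TE7 vs WT are the filled points, and the intervals of NELFB and NELFE lie above 0 in that comparison without passing the adjusted threshold.

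The 3 NELF subunits among the members were each at a higher mean in TE7 than in WT, and none of the 3 passed the test. NELFE, the RNA-binding subunit, was at 40.1, 30.7 and 39.5 CPM in WT, at 50.1, 31.4 and 35.0 CPM in TA7 and at 49.4, 66.5 and 62.7 CPM in TE7. TA7 replicate 1 lay at the level of the lowest TE7 library, and no WT library reached it. The fitted TE7 to WT difference of NELFE was the largest of the 8, at 0.70 on the log2 scale or 1.62-fold. It was also the least precise (SE 0.201, 95% interval 0.23 to 1.16, edgeR adjusted p = 0.0721). NELFE has 1445 bases. Among 4191 transcripts from 1000 to under 2000 bases with at least 5 CPM, the median log2 change from WT to TE7 was 0.20. Of these, 701 were called higher and 246 lower. SUPT4H1, of 1488 bases and in the same class, was at 0.01. The part of that class shift in the NELFE and SUPT4H1 values was not tested.

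NELFB, the subunit to which NELFE binds, was at 103, 75.6 and 75.8 CPM in WT, at 97.8, 80.6 and 79.8 CPM in TA7 and at 111, 116 and 117 CPM in TE7. In WT and in TA7, replicate 1 was well above the other libraries of its group, and the TE7 libraries lay above all. The TE7 to WT difference was 0.43 on the log2 scale (SE 0.135, 95% interval 0.12 to 0.74, edgeR adjusted p = 0.0893). Without WT replicate 1 it was 0.60 and passed in edgeR (adjusted p = 0.0107). NELFE passed in edgeR without TA7 replicate 1 (0.0389), and over the other choices its adjusted p ranged from 0.00838 to 0.2 and that of NELFB from 0.00194 to 0.24.

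NELFA, the subunit that contacts the polymerase, was the most even of the 3. It was at 41.3, 43.0 and 41.4 CPM in WT, at 41.8, 38.9 and 43.4 CPM in TA7 and at 44.0, 46.2 and 46.9 CPM in TE7. In CPM the TE7 libraries lay above the rest by a small margin, with a difference from WT of 0.13 on the log2 scale (95% interval -0.01 to 0.26, edgeR adjusted p = 0.228). In TPM they did not: NELFA was at 23.6, 23.6 and 25.0 in TE7, 20.2, 23.6 and 23.8 in WT and 23.8, 22.8 and 24.8 in TA7. The complex has a further subunit that is not among the members. The summed level of NELFA, NELFB and NELFE was 91.3 TPM ± 6.02 in WT, 101 TPM ± 13.0 in TA7 and 125 TPM ± 7.82 in TE7 (SD, n = 3), with the lowest TE7 library at 115.8 and the highest TA7 library at 115.6. Within a library, the ratio of NELFE to NELFA in TPM was 1.51, 1.12 and 1.52 in WT, 1.89, 1.27 and 1.28 in TA7 and 1.78, 2.296 and 2.13 in TE7. TE7 and WT did not overlap in this ratio (exact two-sided permutation p = 0.1, the smallest that 3 against 3 libraries allow, and 0.3 after Benjamini-Hochberg adjustment over 9 tests of ratios). TA7 overlapped with both.

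Neither subunit of P-TEFb passed the test in TE7 compared with WT. CDK9, the kinase, was at 90.4, 82.5 and 79.0 CPM in WT and at 81.7, 85.4 and 78.0 CPM in TE7, with overlapping groups and a difference of -0.04 on the log2 scale (95% interval -0.19 to 0.11, edgeR adjusted p = 0.778). In TPM, CDK9 was at 39.0, 40.2 and 40.6 in WT and at 38.8, 38.8 and 37.0 in TE7, which did not overlap. Shares of all transcripts without overlap were computed in CPM only. CCNT1, which encodes cyclin T1, was at 56.2, 68.8 and 67.9 CPM in WT and at 56.7, 56.5 and 62.5 CPM in TE7. WT replicate 1 lay below all TE7 libraries, and the difference was -0.13 (95% interval -0.35 to 0.08, edgeR adjusted p = 0.43). It was -0.22 without WT replicate 1 (edgeR adjusted p = 0.105), -0.08 without WT replicate 2 (0.731), and -0.23 with limma on log2(TPM + 1) (0.327). As a ratio of TE7 to WT, the interval was 0.877 to 1.08 for CDK9 and 0.785 to 1.06 for CCNT1.

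CCNT1, of 6788 bases, is the longest of the 8 transcripts, and the 4 libraries where it was lowest were the 4 with the smallest shares of reads from long transcripts. It was at 10.3 TPM in WT replicate 1 and at 10.6, 10.5 and 12.3 TPM in the TE7 libraries. It stood at 14.6 and 15.2 TPM in WT replicates 2 and 3 and at 14.0, 16.2 and 15.2 TPM in TA7. SUPT6H, of nearly the same length, was highest in the TE7 libraries, and the part of the long-transcript share in either result was not tested. Over the 9 libraries CCNT1 ran against all 7 other members, with Pearson's r of log2 CPM from -0.82 with CDK9 to -0.575 with NELFA. With the group means taken out, r was -0.901 with CDK9 and -0.0317 with NELFA. These values hold for CPM, and no r was computed in TPM. In WT replicate 1, CDK9 was the highest of WT in CPM (90.4) but the lowest of WT in TPM (39.0). CCNT1 was the lowest of WT there in both units.

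**Figure D3:**
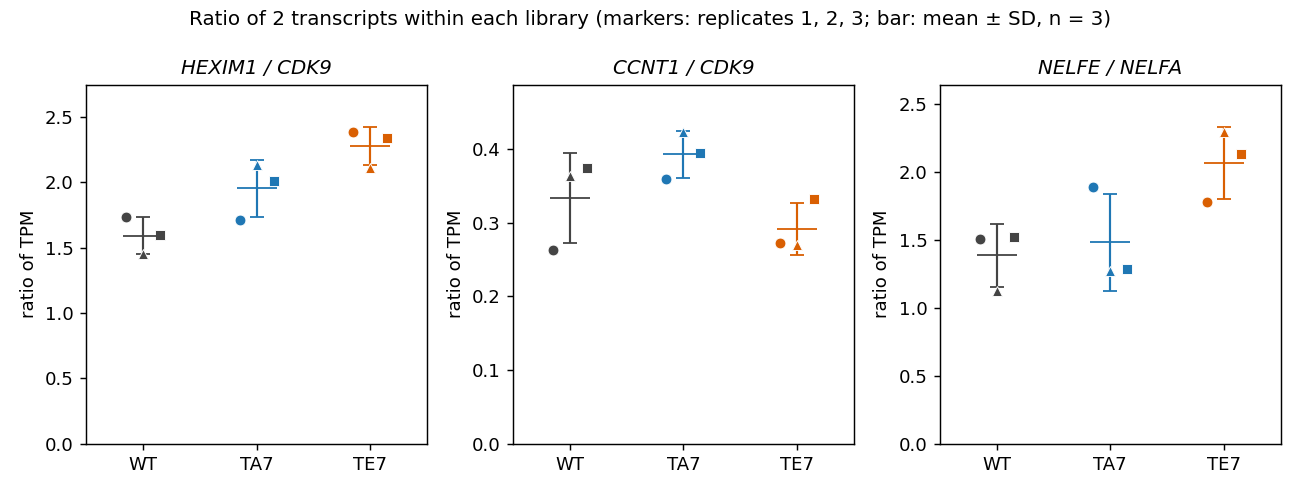
Ratio of 2 transcripts in TPM (vertical axis, from 0) within each library of the WT, TA7 and TE7 groups; bars are mean ± SD, n = 3. The HEXIM1 to CDK9 ratio is 1.45 to 1.73 in WT and 2.11 to 2.39 in TE7, the CCNT1 to CDK9 ratio is lower in every TE7 library than in every TA7 library, and the NELFE to NELFA ratio of TE7 lies above that of WT.

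Ratios of 2 members within a library do not depend on how libraries are scaled. In TPM they still depend on the effective lengths estimated in each library. The ratio of HEXIM1 to CDK9 in TPM was 1.73, 1.45 and 1.60 in WT, 1.71, 2.13 and 2.01 in TA7 and 2.39, 2.11 and 2.34 in TE7. TE7 did not overlap with WT, while TA7 overlapped with both. The TE7 minus WT difference was 0.52 on the log2 scale (exact two-sided permutation p = 0.1, 0.3 adjusted over the 9 ratio tests), so no ratio could pass 0.05 in this design. The ratio of CCNT1 to CDK9, cyclin to kinase, was 0.263, 0.364 and 0.374 in WT, 0.360, 0.424 and 0.395 in TA7 and 0.272, 0.270 and 0.332 in TE7. It was lower in every TE7 library than in every TA7 library, by 0.43 on the log2 scale of group means (exact two-sided permutation p = 0.1, 0.3 adjusted). TE7 and WT overlapped (p = 0.4, 0.45 adjusted, by the same exact test). As a ratio of estimated reads, the TE7 minus TA7 difference was -0.41. The TE7 minus WT difference was -0.09 in reads, against -0.185 in TPM. CCNT1 has 6788 bases and CDK9 has 2483. The median TE7 to TA7 differences of their length classes were -0.18 and 0.07. The part of these class shifts in the ratio was not tested.

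SUPT4H1, the partner of Spt5 in DSIF, was at 59.3, 47.8 and 43.3 CPM in WT, at 48.0, 40.5 and 33.6 CPM in TA7 and at 53.8, 49.9 and 47.4 CPM in TE7. The groups overlapped in all 3 comparisons, and the spread within WT and within TA7 was wide. The TE7 to WT difference was 0.01 on the log2 scale with a 95% interval of -0.35 to 0.36 (edgeR adjusted p = 0.99), or 0.783 to 1.29 as a ratio of TE7 to WT. SUPT4H1 overlaps the lncRNA gene TSPOAP1-AS1 and HEXIM1 overlaps HEXIM2-AS1 in RefSeq, and whether the authors' counting used strand is not given in the sources used here, and without strand the reads of such partners cannot be told apart.

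**Figure D4:**
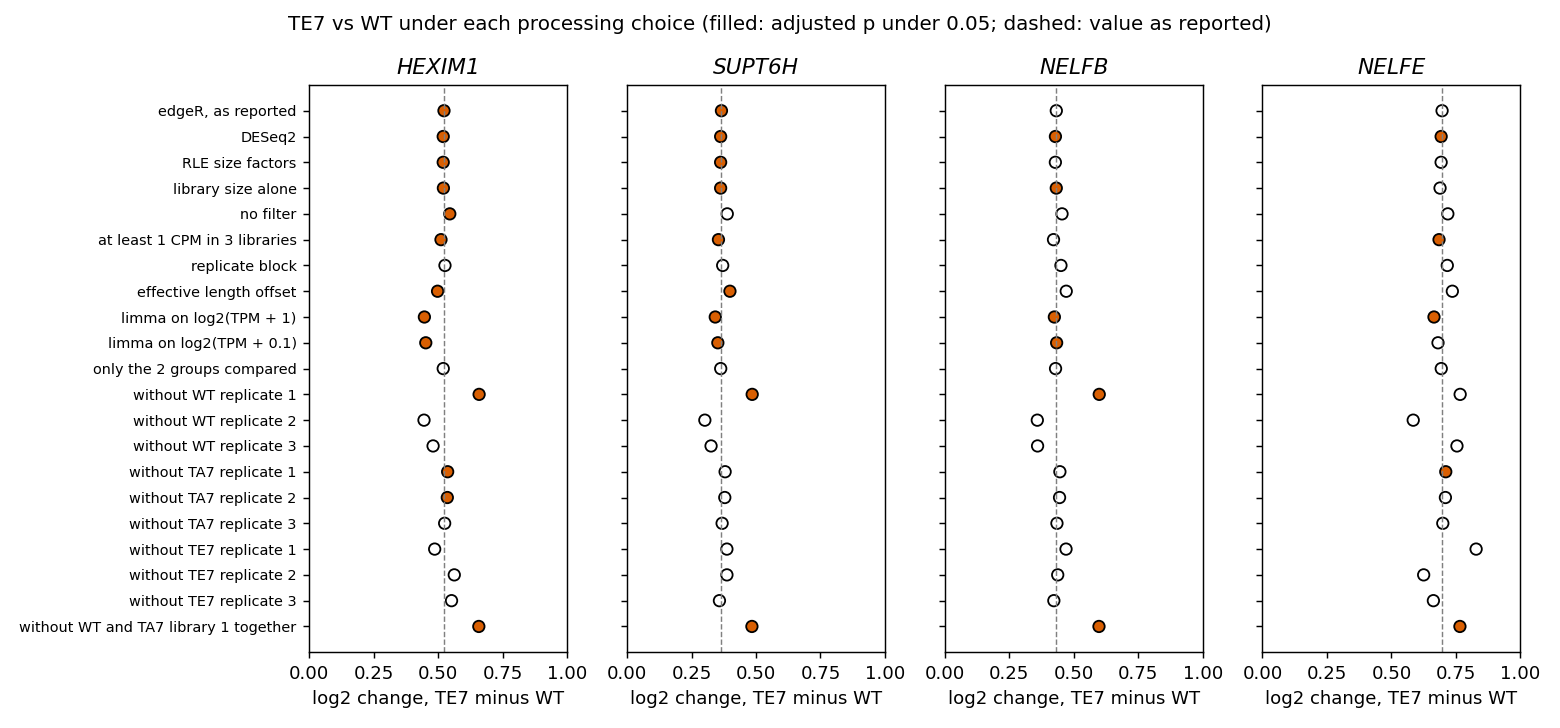
Log2 change of HEXIM1, SUPT6H, NELFB and NELFE from WT to TE7 (horizontal axis) under each processing choice (vertical axis); filled points have adjusted p under 0.05 and the dashed line is the value as reported. All points lie above 0, and HEXIM1 is filled in 13 of 21 rows, SUPT6H in 10, NELFB in 6 and NELFE in 5.

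In TA7 compared with WT, none of the 8 members passed (edgeR), against 0.0612% of all tested transcripts (0.0408% higher and 0.0204% lower) and 0.292% of those in the same CPM range. DESeq2 and limma also called 0, and 1 member, CDK9, had an unadjusted edgeR p under 0.05, against 7.73% of all transcripts. CDK9 was at 77.5, 73.3 and 75.0 CPM in TA7, below every WT library, a difference of -0.16 on the log2 scale (95% interval -0.31 to -0.01, edgeR adjusted p = 0.624). In CPM it was the only 1 of the 8 whose groups did not overlap, against 14.1% of all transcripts and 22.6% of those in the same CPM range. In TPM, SUPT6H did not overlap either, at 30.7, 33.3 and 32.2 in TA7 and 28.6, 25.4 and 27.9 in WT. The share of all transcripts without overlap was not computed in TPM.

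For the other 7 members the 95% interval of the TA7 to WT difference held 0. The fitted log2 difference was -0.30 for SUPT4H1 (interval -0.66 to 0.06) and 0.16 for HEXIM1 (-0.10 to 0.43). For SUPT6H it was 0.11 (-0.09 to 0.32), and it was 0.22 with limma on log2(TPM + 1) (adjusted p = 0.279) and 0.24 without WT replicate 1 (edgeR adjusted p = 0.0898). It was 0.16 for CCNT1 (-0.06 to 0.37). Over the alternatives, the log2 difference ran from -0.42 to -0.15 for SUPT4H1, from 0.09 to 0.37 for HEXIM1, from 0.08 to 0.21 for CCNT1, from 0.05 to 0.26 for SUPT6H and from -0.20 to -0.05 for CDK9. The NELF subunits lay near 0, at 0.08 for NELFE (-0.38 to 0.54), 0.02 for NELFB (-0.29 to 0.33) and -0.02 for NELFA (-0.15 to 0.12). The interval of NELFE still holds a 1.46-fold increase, while that of NELFA ends at 1.08-fold. The median log2 difference of the 8 was 0.05, against 0.00 for all tested transcripts.

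In TE7 compared with TA7, which shares its libraries with the comparisons above, none of the 8 passed in edgeR, against 3.07% of all tested transcripts and 15.1% of those in the same CPM range (6.24% higher). At an unadjusted edgeR p under 0.05 there were 6 members, against 19.3% of all transcripts: SUPT6H, the 3 NELF subunits and HEXIM1 were higher in TE7, and CCNT1 was lower. That share is not matched for CPM, so it does not show whether 6 of 8 is more than among transcripts as abundant. DESeq2 called 5 (the 3 NELF subunits, HEXIM1 and CCNT1) and limma 0. The groups did not overlap for 6 members, against 31.5% of all transcripts and 62.7% of those in the same CPM range. These were SUPT6H, NELFA, NELFB, CDK9 and HEXIM1, higher in TE7, and CCNT1, lower. That count is in CPM: in TPM the groups of NELFA and CDK9 overlapped, and the mean of CDK9 was lower in TE7 (38.2 ± 1.06, SD, n = 3) than in TA7 (38.5 ± 0.356). With limma on log2(TPM + 1) the TE7 to TA7 difference was -0.011 for CDK9 and 0.014 for NELFA, against 0.12 and 0.14 in edgeR.

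NELFE had the largest fitted difference of the 8 here as well. The log2 difference was 0.62 for NELFE (95% interval 0.15 to 1.08, edgeR adjusted p = 0.145) and 0.41 for NELFB (0.10 to 0.72, adjusted p = 0.146). HEXIM1 was higher by 0.36 (0.09 to 0.62, adjusted p = 0.141) and SUPT6H by 0.25 (0.05 to 0.45, adjusted p = 0.17). With limma on log2(TPM + 1) these differences were smaller, at 0.21 for HEXIM1 (adjusted p = 0.217) and 0.12 for SUPT6H (0.33). CCNT1 was at -0.29 (-0.50 to -0.07, edgeR adjusted p = 0.139): its TA7 libraries held 68.5, 76.7 and 69.6 CPM and its highest TE7 library 62.5 CPM. Among transcripts of 4000 to 7999 bases, the class of CCNT1 and SUPT6H, the median TE7 to TA7 difference was -0.18. The median was 0.22 from 1000 to under 2000 bases, the class of NELFE and SUPT4H1. It was 0.07 from 2000 to under 4000 bases, the class of HEXIM1, NELFA, NELFB and CDK9. The part of these class shifts in the values of CCNT1 and the other members was not tested. Without WT replicate 1, a library outside this contrast that enters the shared estimate of the spread, 4 members passed in edgeR: SUPT6H (adjusted p = 0.0114), NELFB (0.0419), HEXIM1 (0.0439) and CCNT1 (0.0485).

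The profiles of the other members over the 9 libraries had lower values of r than HEXIM1 with SUPT6H. NELFB and NELFE, which bind each other within NELF, had a Pearson's r of log2 CPM of 0.886 and a Spearman's rho of 0.867, and r was 0.659 with the group means taken out. NELFB was closest to SUPT6H (r 0.895, rho 0.95, and 0.741 with the group means taken out). NELFA was closest to NELFE, at 0.751, which dropped to 0.305 with the group means taken out. SUPT4H1 and CDK9 were closest to each other (r 0.818, rho 0.8, 0.694 with the group means taken out). That closeness is in CPM, where both were highest in WT replicate 1. In TPM, for which no r was computed, SUPT4H1 was also highest in that library (46.5) but CDK9 was the lowest of WT (39.0). Within 9 libraries of 3 groups these values are descriptions, and WT replicate 1 lies at an end of several of them.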

How the data were processed

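Poly(A)-selected RNA of 9 HCT116 libraries was quantified per transcript by the authors with Salmon 1.3.0 after cutadapt 2.3. Tools and the build, hg19, are those of the submitters' processing notes, and the transcript annotation was not given in these sources. In the deposited tables, per their headers, each transcript has a length, an effective length, a TPM value and an estimated count of reads. The effective length is corrected for bias and exceeded the length for 1.85% to 5.43% of transcripts. The deposited TPM has the same sum in each library and holds no depth, which came from the summed estimated counts.

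Estimated counts were rounded and tested for all transcripts with edgeR 4.0.16 (default filter on low counts, which kept 99.67% to 99.79% of reads, TMM scaling, group as the only term, quasi-likelihood test, Benjamini-Hochberg adjustment, threshold 0.05), after tests on simulated data. DESeq2 1.42.0, limma 3.58.1 and other settings were alternatives. SE is the log2 change over the root of F. CPM uses the TMM-scaled library size. Ratios within a library used an exact two-sided permutation test. All 8 members are named, by rule; the members and lists were chosen with earlier results of these data known. The lists of other pathway genes and of cell markers were not used here, since 0 transcripts of the tables could be paired with a gene. The reported fit has no replicate block.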

Additional observations from a re-analysis of the deposited data

How the results depend on the processing

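HEXIM1, SUPT6H, NELFB and NELFE kept the direction of their TE7 to WT difference under all 20 alternatives, but the number of members passing did not hold. For TE7 compared with WT, where 2 passed, the number was 4 with DESeq2, 4 with limma on log2(TPM + 1), 1 with no filter on low counts and 0 with only the 2 groups compared, and it ranged from 0 to 3 when single libraries were left out. With the replicate block it was 0 (HEXIM1 adjusted p = 0.0661, SUPT6H 0.0746); deviations of same-numbered samples correlated at -0.049 to 0.236 over 9 pairs and of others at -0.252 to 0.114 over 18, and not every sample correlated best with its own number, so the labels' numbers were not taken to pair the samples. Leaving out WT and TA7 replicate 1 together, an alternative chosen after seeing the data, gave 4. For TE7 compared with TA7, where 0 passed, the number was 5 with DESeq2, 1 with only the 2 groups, 2 without both replicates 1, and 0 to 4 when single libraries were left out. TA7 compared with WT gave 0 throughout. Fewer samples enter the leave-one-out fits; for the other settings the cause was not tested.

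Signs changed for the following log2 differences, none of which passed the test. SUPT4H1 in TE7 compared with WT was -0.0058 with at least 1 CPM in 3 libraries, -0.017 with limma at either pseudocount (1 or 0.1), and -0.087 to 0.15 when single libraries were left out. CDK9 was 0.019 without both replicates 1 and -0.080 to 0.020 leaving out single libraries, and in TE7 compared with TA7 it was -0.011 with limma at either pseudocount. In TA7 compared with WT, NELFA was 0.036 with library size alone, 0.0011 with no filter, 0.0065 with the effective length offset and 0.080 and 0.083 with limma, and -0.051 to 0.033 leaving out single libraries. There NELFB ranged from -0.068 to 0.19 and NELFE from -0.13 to 0.22 leaving out single libraries, NELFE was -0.070 without both replicates 1, and the log2 NELFE to NELFA ratio ranged from -0.10 to 0.18. With limma on log2(TPM + 0.1) the median of all transcripts in TE7 compared with TA7 was -0.125, against -0.02 as reported. The depth, 2002 to 19560 reads for a member in a library, sets a counting error that was not compared with the spread between libraries; with 3 against 3 libraries no ratio could pass 0.05.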
